A study of Homo sapiens with 6 samples.

Results

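The TSC complex, its target GTPase RHEB and the mTOR complexes form the core of a growth-signalling pathway, and 10 genes of that core were examined here. They were TSC2, TSC1 and TBC1D7, which encode the TSC complex, RHEB, the complex subunits MTOR, MLST8, RPTOR and RICTOR, and the inhibitors DDIT4 and AKT1S1. They were chosen by symbol for their place in the pathway, and 1 probe set stood for each, the brightest on average where there was a choice. Of these 10 genes, 9 were measured among 18417 genes in all. The probe set of TBC1D7 is annotated to a readthrough gene as well, so it cannot be assigned to TBC1D7 and no value is given for it. RHEB had 2 probe sets, and each of the other 8 measured genes had 1.

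Expression was measured on 6 microarrays of Du145 cells, an established human prostate carcinoma line, cultured with high glucose and 10% serum and held at 1% oxygen, with RNA taken after 24 h of hypoxia. The groups were cells adapted from a TSC2 knockdown (shTSC2-adapted), cells with the TSC2 knockdown (shTSC2) and control cells, with 2 arrays in each. The knockdown used a short hairpin RNA against TSC2 carried by a lentivirus, and hypoxia was common to all groups. The sources used here do not give the hairpin's sequence, the nature of the adaptation, any virus given to control cells, or the cultures behind the arrays of a group. For that reason p-values cover the spread among these arrays alone, and that spread may be technical.

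As background, the TSC complex switches RHEB off by speeding the hydrolysis of its bound GTP, and active RHEB on the lysosome turns on mTORC1, the complex of the kinase mTOR with RPTOR and MLST8. mTORC1 promotes the making of proteins, lipids and nucleotides, while mTORC2, which holds RICTOR in place of RPTOR, phosphorylates AKT and related kinases. Under hypoxia, cells are known to raise DDIT4 (REDD1), which restrains mTORC1 through the TSC complex. The pathway is controlled largely by protein modification, which transcript levels do not show.

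Values below are log2 intensities normalized with RMA, differences are between group means (n = 2 arrays each) with a standard error (SE), and adjusted p-values are two-sided, from limma over 18417 genes. A gene is said to rise or fall where its adjusted p was under 0.05. A probe set's intensity depends on its own probes, so tests set levels side by side within a gene only. Marker levels, and the word dim, place genes against others only roughly. Fewer cells of a kind and less RNA per cell cannot be told apart in these bulk samples. Arrays of a group correlated at Pearson r between 0.990 and 0.997 across genes, which are not independent replicates, and median intensities were 58.1 to 63.1. All 5 epithelial markers were measured, with KRT18, a simple-epithelial keratin, at a mean log2 intensity of 11.40, and CDH1, E-cadherin, the dimmest at 6.16. KLK3 and KLK2, androgen-responsive prostate genes, lay at 5.13 and 5.40, below the median of all genes (6.49), and Du145 is known as a line without androgen receptor signalling.

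Transcripts of 4 of the 9 measured genes were lower in shTSC2 than in control cells: the hairpin's target TSC2, the GTPase RHEB, the mTORC1 subunit RPTOR and the stress-induced inhibitor DDIT4. In shTSC2 against control these 4 fell, 0 rose and the other 5 did not pass, where 20.8% of all genes were called, 6.87% as higher and 13.9% as lower. The median difference of the 9 genes was -0.38, against 0.03 for all genes, and 7 of the 9 had groups that did not overlap, as did 62.0% of all genes. In shTSC2-adapted against control, TSC2 alone fell and 0 rose, where 0.261% of all genes were called, 0.0543% as higher and 0.206% as lower. The median of the 9 genes was then -0.07, against 0.00 for all genes, and 5 had groups that did not overlap, as did 45.9% of all genes. In shTSC2-adapted against shTSC2, DDIT4 and RPTOR were higher and 0 genes were lower, where 12.5% of all genes were called, 9.25% as higher and 3.24% as lower. The median was 0.13, against -0.02 for all genes, and 5 of the 9 had groups that did not overlap, as did 52.1% of all genes. The 2 comparisons with control use the same control arrays, and the third uses the arrays of both knockdown groups again. Brighter genes were called more often than all genes, and the 9 were among them. With dim genes left out, 9209 genes remained, and 3343 of them were called in shTSC2 against control, with 4 of the 9. In shTSC2-adapted against control 121 were called, with 1 of the 9, and in shTSC2-adapted against shTSC2 2159, with 2 of the 9.

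The 250 bases upstream of the annotated starts of DDIT4, RHEB and RPTOR are shown, from RefSeq on GRCh38.p14, because the transcripts of these genes fell in shTSC2 cells without being the hairpin's target. The sequences run 5′ to 3′ on the gene's own strand, and capitals mark ACGTG or GCGTG on either strand, the core letters of the hypoxia response element bound by hypoxia-inducible factors.
DDIT4, chr10:72273674-72273923, plus strand: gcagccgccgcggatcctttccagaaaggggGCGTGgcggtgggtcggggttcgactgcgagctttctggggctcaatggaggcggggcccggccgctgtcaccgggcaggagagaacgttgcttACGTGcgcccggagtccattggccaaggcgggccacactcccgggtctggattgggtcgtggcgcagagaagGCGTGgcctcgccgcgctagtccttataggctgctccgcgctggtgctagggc
RHEB, chr7:151519896-151520145, minus strand: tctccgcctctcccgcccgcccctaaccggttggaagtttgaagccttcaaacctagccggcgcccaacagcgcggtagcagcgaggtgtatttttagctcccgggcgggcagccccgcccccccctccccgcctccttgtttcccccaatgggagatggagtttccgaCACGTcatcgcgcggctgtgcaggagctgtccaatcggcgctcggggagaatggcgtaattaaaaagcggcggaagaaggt
RPTOR, chr17:80544588-80544837, plus strand: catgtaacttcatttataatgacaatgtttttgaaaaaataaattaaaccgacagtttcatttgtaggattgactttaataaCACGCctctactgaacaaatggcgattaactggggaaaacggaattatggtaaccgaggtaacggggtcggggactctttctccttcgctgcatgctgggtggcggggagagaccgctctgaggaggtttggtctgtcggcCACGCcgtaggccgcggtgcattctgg
The DDIT4 window held 1 ACGTG, beginning 125 bases before the start, and 2 GCGTG. The RHEB window held 1 ACGTG on the opposite strand, and the RPTOR window held 2 GCGTG, also on the opposite strand. Such short letters are common: of 35116 promoter windows of 250 bases in the table, 18.5% held ACGTG and 32.2% held GCGTG. Members not shown held them too: TSC2 (2 ACGTG in 1 of its windows), TBC1D7 (1 GCGTG), MTOR (1 GCGTG) and RICTOR (1 of each). The TSC1 window held neither. MTOR and RICTOR did not pass in any comparison, so the letters were not particular to the genes that fell. Also searched were TGATGNAA, a C/EBP-ATF response element, and GGGCGG, the GC box, held by 3.14% and 42.6% of all windows. The DDIT4 and RPTOR windows held neither, and the RHEB window held GGGCGG 4 times and no TGATGNAA. Of the members not shown, TSC2 alone held TGATGNAA (1), and each with a promoter held GGGCGG. A match is a description of the letters and not of a bound site, and a link between the letters and the falls was not tested. Of the 10 genes, 8 had a promoter in the table.

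TSC2, the GTPase-activating subunit of the TSC complex and the target of the hairpin, was lower in both knockdown groups. Log2 intensities were 6.54 and 6.48 in shTSC2-adapted cells, 6.67 and 6.55 in shTSC2 cells, and 7.52 and 7.59 in control cells. All 4 knockdown arrays lay below both control arrays, and the knockdown groups stood next to each other without overlap. In shTSC2-adapted cells the TSC2 intensity stood at 48.5% of control (95% interval 41.4% to 56.7%) and in shTSC2 cells at 51.9% (44.4% to 60.8%). These are ratios of intensity, and the share of transcript left was not measured in another way. Ranked by difference from control, TSC2 was number 27 from the lowest of all genes in shTSC2-adapted cells and number 696 in shTSC2 cells. The difference from control was -1.04 (SE 0.10, adjusted p = 0.0241) in shTSC2-adapted cells and -0.94 (SE 0.10, adjusted p = 0.00102) in shTSC2 cells. Between the knockdown groups it was -0.10 (95% interval -0.33 to 0.13, adjusted p = 0.564), an interval that leaves out any return of TSC2 toward control of more than 0.13. The call in shTSC2-adapted cells ended without control array 1 (adjusted p = 0.386), control array 2 (0.372), shTSC2-adapted array 1 (0.169) or shTSC2-adapted array 2 (0.0973) and with the array number as a replicate block (0.0515), while the difference itself stayed between -1.08 and -1.01.

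**Figure D1:**
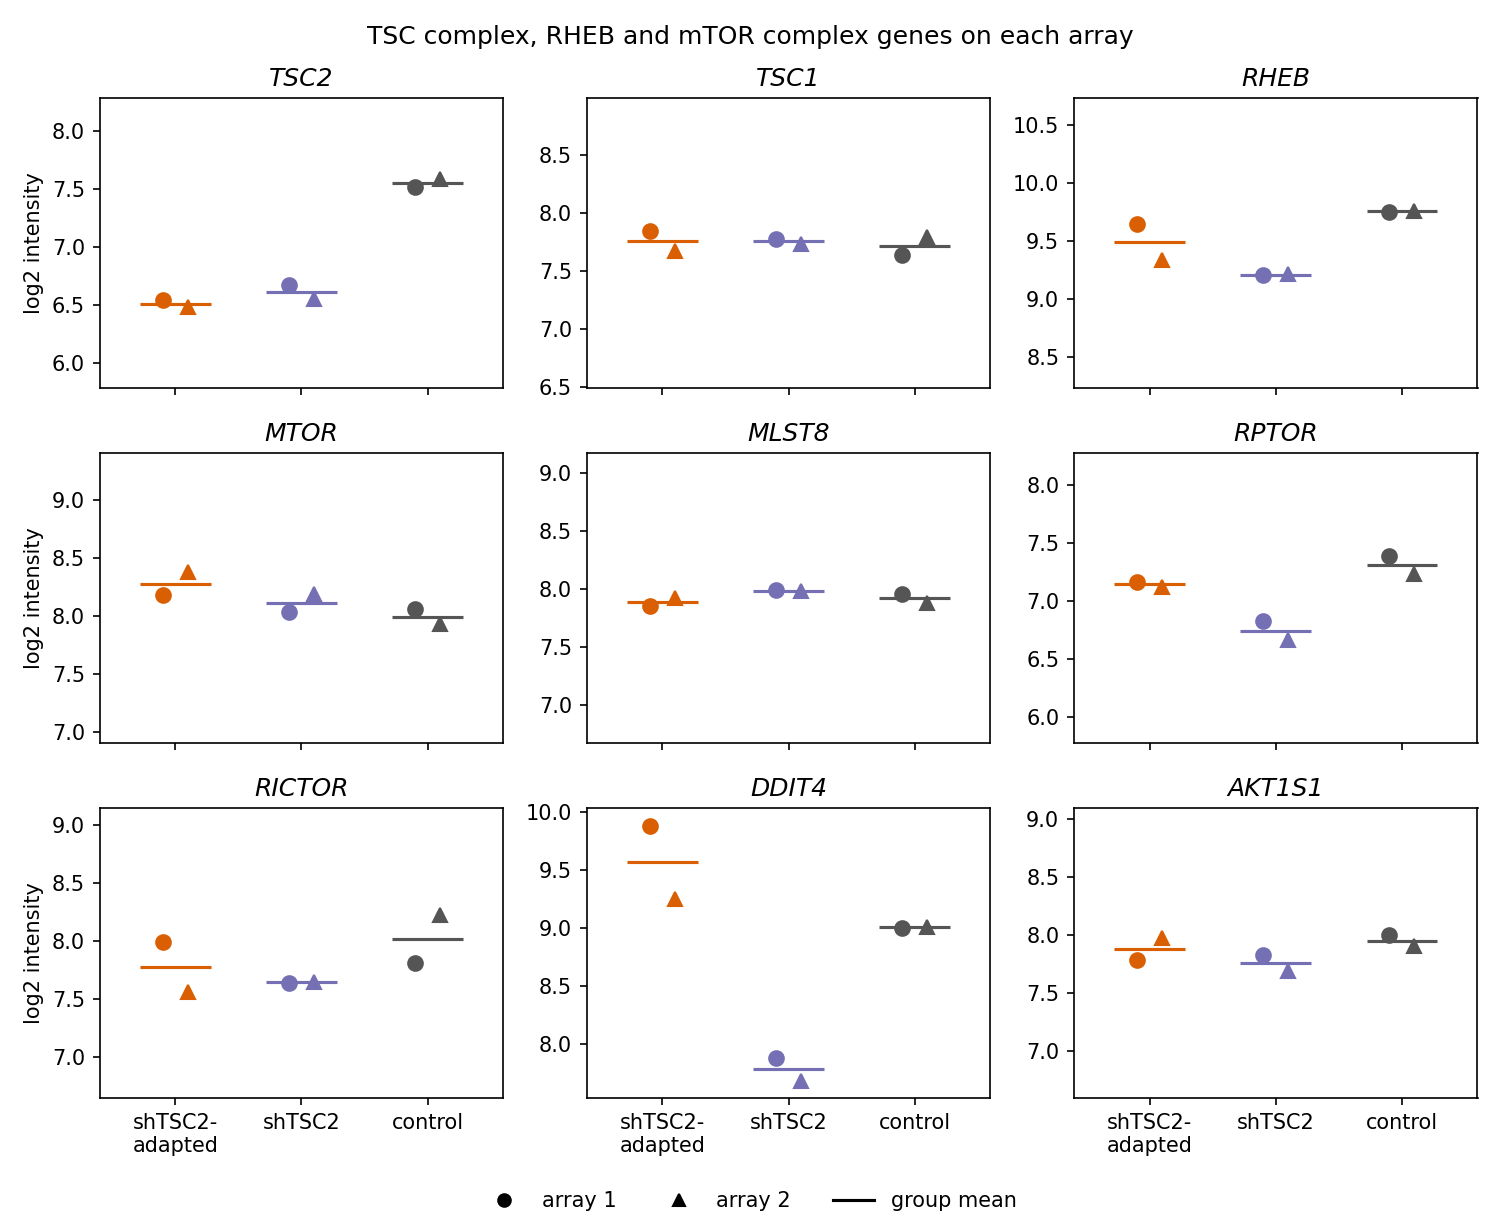
Log2 intensity of the 9 measured genes on every array, with shTSC2-adapted, shTSC2 and control cells from left to right, circles for array 1, triangles for array 2, a line at the mean of each group and the same span of log2 units in every panel. TSC2 is low in both knockdown groups, DDIT4, RHEB and RPTOR are lowest in shTSC2 cells, and MLST8 spans the narrowest range.

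TSC1, hamartin, which stabilises TSC2 within the complex, did not pass in any comparison. Its log2 intensity was 7.85 and 7.68 in shTSC2-adapted cells, 7.78 and 7.74 in shTSC2 cells, and 7.64 and 7.80 in control cells. The 3 groups overlapped, and the gap between the control arrays (0.16) was larger than any difference between group means. The difference from control was 0.04 in shTSC2-adapted cells (95% interval -0.21 to 0.30, adjusted p = 0.930) and 0.04 in shTSC2 cells (-0.21 to 0.29, adjusted p = 0.835). Those intervals do not reach a fall of the size seen for TSC2.

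RHEB, the GTPase that the TSC complex switches off, fell in shTSC2 cells. Log2 intensities were 9.64 and 9.33 in shTSC2-adapted cells, 9.20 and 9.21 in shTSC2 cells, and 9.75 and 9.76 in control cells. The shTSC2 arrays were tightly grouped and lowest, the control arrays tightly grouped and highest, and the shTSC2-adapted arrays lay apart from each other in between. The level in shTSC2 cells was 68.3% of control (95% interval 56.3% to 82.9%), a difference of -0.55 (SE 0.12, adjusted p = 0.0168). The value for shTSC2-adapted cells was -0.27 against control (95% interval -0.55 to 0.01, adjusted p = 0.414) and 0.28 against shTSC2 (0.00 to 0.56, adjusted p = 0.185), and neither passed. Leaving out shTSC2-adapted array 1 or 2 gave -0.42 or -0.11 against control, both below control but by unequal amounts. The call in shTSC2 cells ended without control array 1 (adjusted p = 0.111) or control array 2 (0.123).

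The second probe set annotated to RHEB read 9.46 and 9.38 in shTSC2-adapted cells, 9.17 and 9.30 in shTSC2 cells, and 9.68 and 9.63 in control cells. It showed the same order of groups with a smaller difference of -0.42 (SE 0.10) between shTSC2 and control, which passed when every probe set was tested (adjusted p = 0.0229). The human gene table lists 3 RHEB pseudogenes, and whether either probe set also reads one was not tested. RHEBL1, the paralogue of RHEB, was dim at 5.38 and 5.15 in shTSC2-adapted cells, 5.26 and 5.39 in shTSC2 cells, and 5.15 and 5.25 in control cells. Both shTSC2 arrays lay just above the control arrays, and the shTSC2-adapted arrays overlapped with both other groups. The difference between shTSC2 and control was 0.12 (95% interval -0.14 to 0.39, adjusted p = 0.498).

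Among the mTOR complex subunits, RPTOR fell in shTSC2 cells, while MTOR, MLST8 and RICTOR did not pass in any comparison. RPTOR encodes raptor, the subunit that brings substrates to mTORC1. Its log2 intensity was 7.16 and 7.12 in shTSC2-adapted cells, 6.82 and 6.66 in shTSC2 cells, and 7.38 and 7.23 in control cells. The shTSC2 arrays were lowest and the 3 groups did not overlap. RPTOR stood at 67.6% of control in shTSC2 cells (95% interval 57.0% to 80.2%), a difference of -0.57 (SE 0.11, adjusted p = 0.00937), and the call ended without control array 1 (0.0973) or control array 2 (0.0542). In shTSC2-adapted cells the value was -0.17 against control (95% interval -0.41 to 0.08, adjusted p = 0.608). It was higher than in shTSC2 cells by 0.40 (SE 0.11, 95% interval 0.15 to 0.65, adjusted p = 0.0495). That call stood at the threshold and ended under 13 of 16 alternatives, in which its adjusted p ran from 0.0521 to 0.184, over a range of 0.0413 to 0.184 for all of them.

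RPTOR is also the longest of these genes, with a span of 422 kb in the reference annotation, and in these data differences between shTSC2 and control ran lower in bins of longer genes. With genes cut into 8 bins by span, the median difference between shTSC2 and control was -0.15 in the bin of the longest genes (median 220 kb) and 0.10 in that of the shortest (1.56 kb). With that trend over gene length removed, RPTOR differed by -0.42 between shTSC2 and control (adjusted p = 0.0360) and by 0.29 between shTSC2-adapted and shTSC2 (adjusted p = 0.146). The other long members were MTOR (156 kb) and RICTOR (136 kb), which with the trend removed stood at 0.30 (adjusted p = 0.114) and -0.21 (0.467) in shTSC2 against control.

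MTOR, the kinase of both complexes, had log2 intensities of 8.18 and 8.38 in shTSC2-adapted cells, 8.04 and 8.19 in shTSC2 cells, and 8.06 and 7.93 in control cells. The shTSC2-adapted arrays lay above both control arrays and the shTSC2 arrays overlapped with both other groups. Its difference from control was 0.29 in shTSC2-adapted cells (95% interval 0.02 to 0.55, adjusted p = 0.364) and 0.12 in shTSC2 cells (-0.15 to 0.39, adjusted p = 0.517). MLST8, the small subunit that both complexes share and that steadies the kinase domain, read 7.85 and 7.92 in shTSC2-adapted cells, 7.99 and 7.98 in shTSC2 cells, and 7.96 and 7.88 in control cells. Its values spanned the narrowest range of the 9 genes, and the shTSC2 arrays lay just above those of both other groups. The difference was 0.06 between shTSC2 and control (95% interval -0.15 to 0.28, adjusted p = 0.676).

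RICTOR, the defining subunit of mTORC2, was the least evenly measured of the subunits. Log2 intensities were 7.99 and 7.56 in shTSC2-adapted cells, 7.64 and 7.65 in shTSC2 cells, and 7.81 and 8.23 in control cells. The shTSC2 arrays lay below both control arrays, but the control arrays differed from each other by 0.42 and the shTSC2-adapted arrays by 0.43. The value for shTSC2 against control was -0.38 (SE 0.18, 95% interval -0.80 to 0.05, adjusted p = 0.193), and it was -0.59 without control array 1 and -0.17 without control array 2. The interval includes a fall as large as that of RPTOR, and a difference between these subunits was not tested.

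DDIT4, the hypoxia- and stress-induced inhibitor of mTORC1 signalling, had the largest difference of the 9 genes in shTSC2 against control and in shTSC2-adapted against shTSC2, while in shTSC2-adapted against control that of TSC2 was larger. Its log2 intensity was 9.88 and 9.25 in shTSC2-adapted cells, 7.88 and 7.68 in shTSC2 cells, and 9.00 and 9.01 in control cells. The shTSC2 arrays were lowest, both shTSC2-adapted arrays lay above the control arrays, and no groups overlapped. In shTSC2 cells it stood at 42.8% of control (95% interval 31.3% to 58.5%), a fall of 1.23 on the log2 scale (SE 0.19, adjusted p = 0.00478) that ended as a call only without control array 2 (adjusted p = 0.0522, with a difference of -1.22). In shTSC2-adapted cells it stood at 345% of the shTSC2 level (252% to 471%), a log2 difference of 1.79 (SE 0.19, adjusted p = 0.00288). It was number 17 from the highest of 18417 genes in that comparison, and the difference passed under all 16 alternatives, between 1.47 and 2.10 (adjusted p 0.000953 to 0.0165).

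Against control, the higher level of DDIT4 in shTSC2-adapted cells did not pass. The difference was 0.56 (SE 0.19, 95% interval 0.11 to 1.01, adjusted p = 0.291), or 147% of control. It depended on which shTSC2-adapted array was used, being 0.25 without array 1 and 0.88 without array 2, since these arrays differed by 0.63. DDIT4L (REDD2), the paralogue of DDIT4, read 6.27 and 6.51 in shTSC2-adapted cells, 6.24 and 5.90 in shTSC2 cells, and 6.77 and 6.47 in control cells. It fell in shTSC2 cells by 0.55 (SE 0.16, adjusted p = 0.0486), and its value for shTSC2-adapted against shTSC2 was 0.32 (95% interval -0.05 to 0.69, adjusted p = 0.252).

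AKT1S1 encodes PRAS40, an inhibitor that binds raptor and releases mTORC1 once AKT phosphorylates it. Log2 intensities were 7.79 and 7.98 in shTSC2-adapted cells, 7.83 and 7.69 in shTSC2 cells, and 8.00 and 7.91 in control cells. The shTSC2 arrays lay below both control arrays by a margin smaller than the gap between the shTSC2 arrays (0.14), and the shTSC2-adapted arrays overlapped with both other groups. The difference between shTSC2 and control was -0.19 (SE 0.11, 95% interval -0.45 to 0.06, adjusted p = 0.265).

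**Figure D2:**
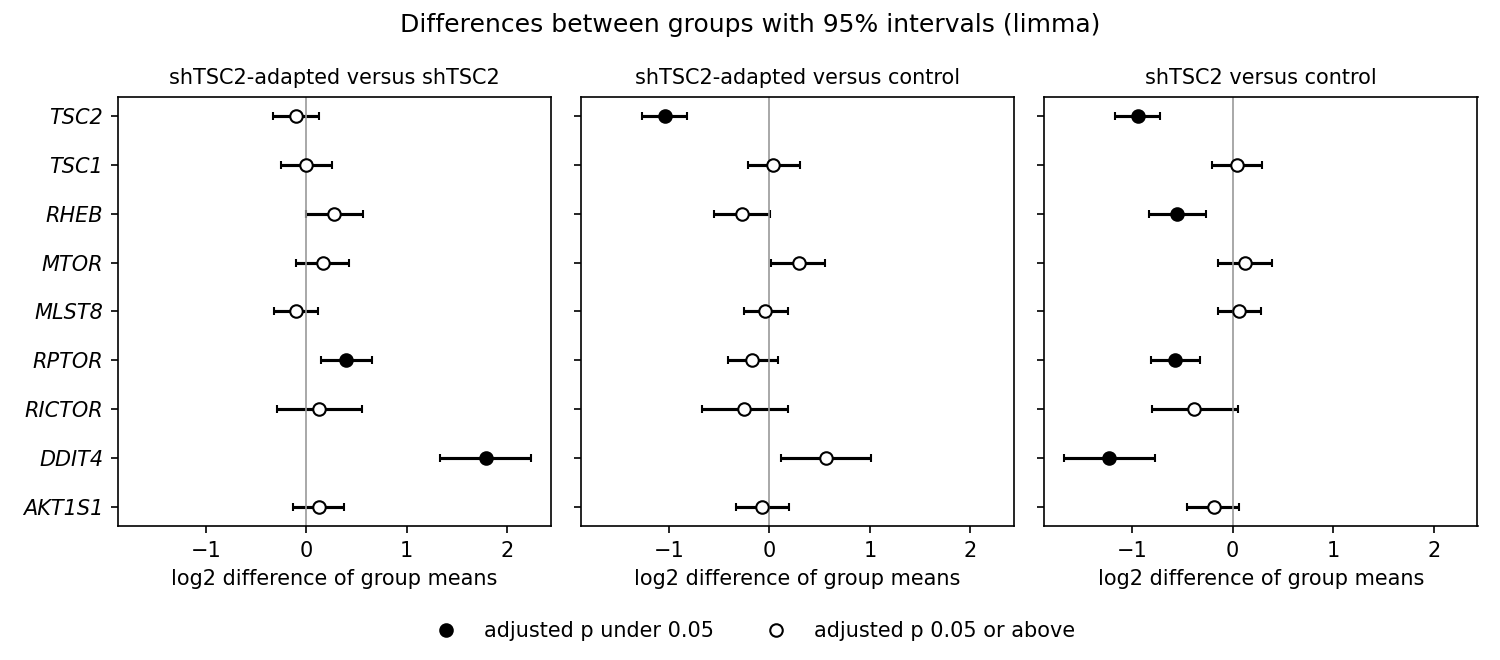
Log2 difference of group means for the 9 genes in each comparison, with bars for the 95% interval from limma and filled points where the adjusted p was under 0.05. TSC2 lies near -1 in both comparisons with control, and DDIT4 lies at -1.23 in shTSC2 against control and at 1.79 in shTSC2-adapted against shTSC2.

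**Figure D3:**
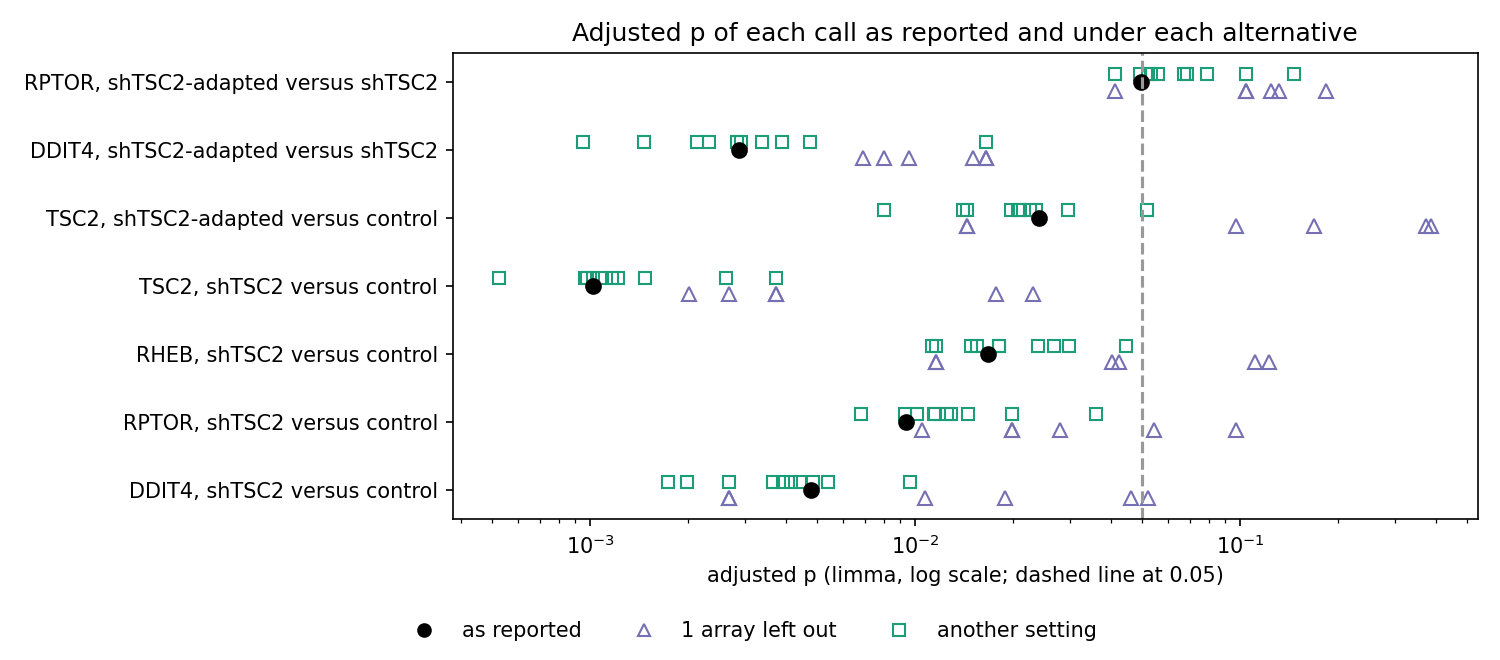
Adjusted p of each of the 7 calls on a log axis, as reported (black), with 1 array left out (triangles) and under another setting (squares), with a dashed line at 0.05. TSC2 in shTSC2 against control and DDIT4 in shTSC2-adapted against shTSC2 stay left of the line throughout. RPTOR in shTSC2-adapted against shTSC2 lies on it as reported and to the right of it under most of the 16 alternatives.

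Other genes of the pathway were taken from lists by role. Beside the counts for each list, 13.9% of all genes were called lower and 6.87% higher in shTSC2 against control. In shTSC2-adapted against shTSC2, 9.25% of all genes were called higher and 3.24% lower. Of 7 other subunits and assembly factors of the mTOR complexes, 6 were measured, and 2 of them fell in shTSC2 cells (list median -0.30, against 0.03 for all genes). MAPKAP1 encodes SIN1, an essential subunit of mTORC2, and read 9.17 and 9.32 in shTSC2-adapted cells, 8.56 and 8.76 in shTSC2 cells, and 9.31 and 9.35 in control cells. It fell by 0.67 in shTSC2 cells (SE 0.11, adjusted p = 0.00561). The shTSC2-adapted level lay 0.58 above that of shTSC2 (SE 0.11, adjusted p = 0.0159) and at -0.09 against control (adjusted p = 0.847). DEPTOR, an inhibitor that binds mTOR in both complexes, was dim, at 5.64 and 5.26 in shTSC2-adapted cells, 4.75 and 4.99 in shTSC2 cells, and 5.56 and 5.89 in control cells, and fell in shTSC2 cells by 0.86 (SE 0.17, adjusted p = 0.0119).

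Of 22 listed inputs to the TSC complex or RHEB, 18 were measured. In shTSC2 cells 5 fell (list median -0.18), where 13.9% of all genes were called lower. PIK3CB, a catalytic subunit of phosphoinositide 3-kinase, had the largest fall, at 7.62 and 7.76 in shTSC2 cells against 9.03 and 9.31 in control cells (-1.48, SE 0.12, adjusted p = 0.000596). It was higher again on the shTSC2-adapted arrays, at 8.86 and 8.98, a difference of 1.23 from shTSC2 (SE 0.12, adjusted p = 0.00252). GSK3B, a kinase that phosphorylates TSC2, fell by 0.70 (adjusted p = 0.0124), PRKAG2, a subunit of the energy sensor AMPK, by 0.55 (0.00579), and IKBKB, a kinase that acts on TSC1, by 0.41 (0.0312). AKT2 also fell, by 0.37 (adjusted p = 0.0337), which is named to complete the count, and AKT1 stood at -0.04 (adjusted p = 0.900). PIK3CB, PRKAG2 and GSK3B were the 3 that were higher in shTSC2-adapted than in shTSC2 cells, where 9.25% of all genes were called higher.

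The 10 listed substrates of mTORC1 or mTORC2 changed in both directions. In shTSC2 cells 4 fell and 2 rose, around a median of -0.10, where 13.9% of all genes were called lower and 6.87% higher. SGK1, a kinase that mTORC2 activates, read 5.32 and 5.54 in shTSC2-adapted cells, 7.09 and 6.66 in shTSC2 cells, and 5.64 and 5.63 in control cells. It was highest on the shTSC2 arrays, 1.24 above control (SE 0.15, adjusted p = 0.00193), with a difference of -1.45 between shTSC2-adapted and shTSC2 (adjusted p = 0.00274). RPS6KB2, an S6 kinase, rose by 0.77 in shTSC2 cells, while PRKCA, a protein kinase C, fell by 1.33 and GRB10, an adaptor that damps insulin signalling, fell by 1.16 (adjusted p 0.00295 to 0.00360). LPIN1, a phosphatidate phosphatase, had 8.96 and 8.71 in shTSC2-adapted cells against 7.40 and 7.71 in shTSC2 cells, a rise of 1.28 (SE 0.15, adjusted p = 0.00358). In that comparison 2 of the 10 were higher, LPIN1 and PRKCA, and 2 were lower, SGK1 and RPS6KB2, around a median of 0.13. EIF4EBP2, a repressor of translation, fell by 1.00 in shTSC2 cells (adjusted p = 0.00477), and RPS6KB1 and EIF4EBP1, the best-known substrates of mTORC1, stood at -0.11 and -0.09 in shTSC2 against control (adjusted p = 0.551 and 0.602).

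Of 8 transcription factors known to act on DDIT4, 7 were measured. In shTSC2 cells 4 fell, with a list median of -0.80, where 13.9% of all genes were called lower. HIF1A, the oxygen-regulated subunit of hypoxia-inducible factor, read 8.18 and 8.60 in shTSC2 cells against 9.15 and 9.27 in control cells (-0.82, SE 0.14, adjusted p = 0.00732). SP1, a factor that binds GC-rich promoters, fell by 1.09 and NR3C1, the glucocorticoid receptor, by 0.80 (adjusted p = 0.000805 and 0.00369). ATF4, which drives the response to amino acid shortage, fell by 1.26 on its brighter probe set (adjusted p = 0.000524) but stood at -0.24 on its other one, which did not pass (adjusted p = 0.312 with every probe set tested). The count of 4 and the list median of -0.80 both rest on the brighter ATF4 probe set. With the other one, fewer genes would have fallen and the median would lie nearer that of all genes. In shTSC2-adapted against shTSC2 cells, ATF4, SP1 and EPAS1, another oxygen-regulated factor, were higher, by 1.00, 0.77 and 0.37 (adjusted p = 0.00249, 0.00516 and 0.0429), the other ATF4 probe set again not passing (0.41, 0.139). These are transcript levels, and the proteins were not measured.

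In shTSC2-adapted against control, limma called 0 genes of these lists, where 0.261% of all genes were called. A gene not called was not thereby back at its control level. EIF4EBP2 stood at -1.02 (95% interval -1.39 to -0.65, adjusted p = 0.0636), LPIN1 at 0.75 (0.0943) and GRB10 at -0.64 (0.155). The other substrates had smaller differences. At an unadjusted p under 0.05 the counts were 4 of 10 substrates, 5 of 7 transcription factors, 1 of 18 inputs, 0 of 6 complex genes and 0 of 2 paralogues, where 12.6% of all genes stood under that value.

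**Figure D4:**
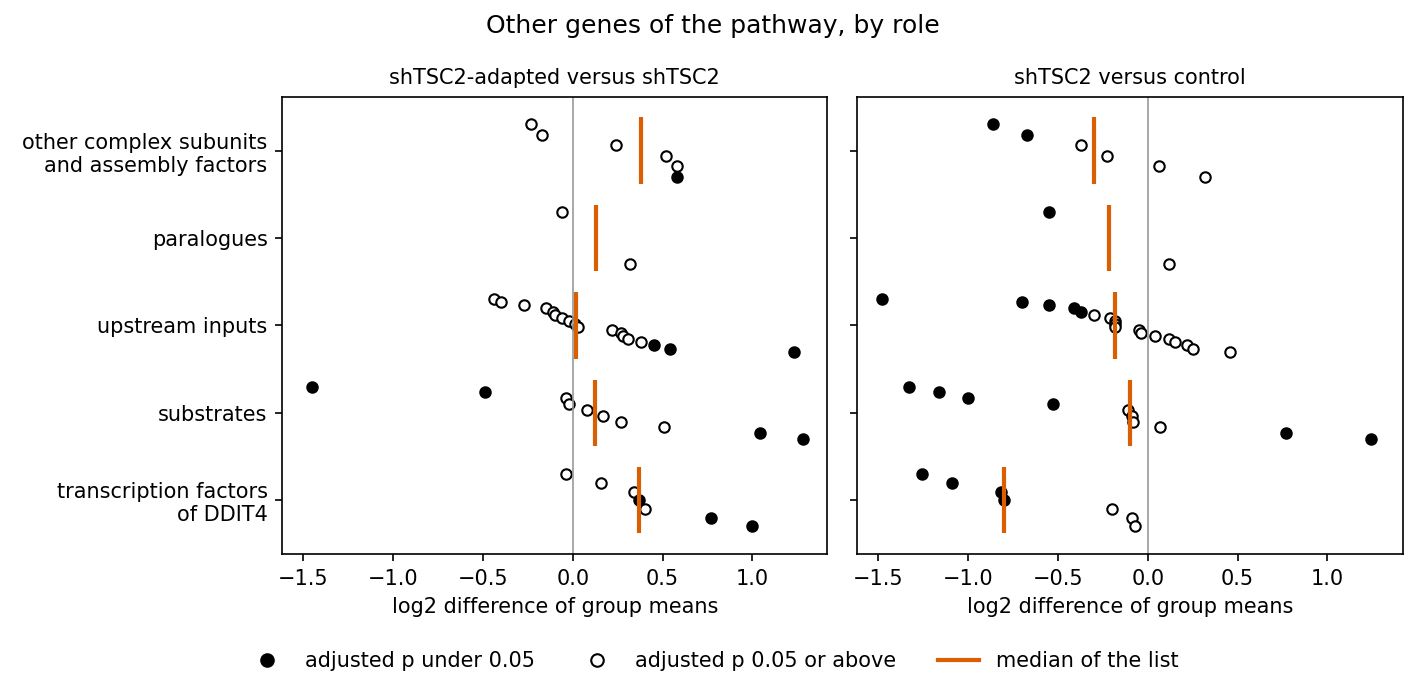
Log2 difference of group means for each gene of the lists by role in shTSC2-adapted against shTSC2 (left) and shTSC2 against control (right), filled where the adjusted p was under 0.05, with an orange line at the median of the list. In shTSC2 against control the transcription factors of DDIT4 have the lowest median (-0.80), which rests on the brighter probe set of ATF4, and the substrates run from -1.33 to 1.24.

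Some epithelial markers moved in the same comparisons as DDIT4. In shTSC2 cells 2 of 5 epithelial markers fell, where 13.9% of all genes were called lower. In shTSC2-adapted against shTSC2 cells 3 of 5 were higher, where 9.25% of all genes were called higher. The mean level over the 5 was 9.24 to 9.46 on the shTSC2-adapted arrays, 8.32 to 8.51 on the shTSC2 arrays, and 8.82 to 8.95 on the control arrays. In shTSC2 against control KRT19, an epithelial keratin, fell by 1.38 (adjusted p = 0.00664) and EPCAM, an epithelial adhesion molecule, fell by 1.29 (0.0271), while CDH1 stood at -0.14 and did not pass (0.722). The 3 markers higher in shTSC2-adapted than in shTSC2 cells were KRT19 (1.55), EPCAM (1.64) and CDH1 (1.54), with adjusted p between 0.00756 and 0.0173. The other listed keratins, KRT8 and KRT18, did not pass in either comparison, at 0.26 and 0.17 in shTSC2 against control (adjusted p = 0.0902 and 0.251) and at -0.09 and 0.05 in shTSC2-adapted against shTSC2 (0.573 and 0.760). Of the leukocyte, fibroblast and endothelial markers measured, limma called 0 in any comparison (at an unadjusted p under 0.05, 1 fibroblast marker in each comparison with control and 0 others, where 12.6% of all genes stood under that value in shTSC2-adapted against control, 33.3% in shTSC2 against control and 27.0% in shTSC2-adapted against shTSC2), and the mean levels of the leukocyte list were 3.96 to 3.99 in shTSC2-adapted cells, 4.04 to 4.06 in shTSC2 cells and 3.93 to 3.97 in control cells. In shTSC2-adapted against control, CDH1 stood at 1.40 (95% interval 0.86 to 1.94, adjusted p = 0.0680). KRT19 stood at 0.17 (0.860) and EPCAM at 0.36 (0.736), and none of these passed. The part of the epithelial markers in the change of DDIT4 was not tested.

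The genes with the pattern most like that of a member were found by the root mean square difference over the 6 arrays after each gene was centred on its mean. The arrays are few and shared, so these values are descriptions only. For TSC2 the nearest were ANTXR1 (0.0261 log2 units, r = 0.999), TLE4 (0.0685), PTPRM (0.0804), TRAM2 (0.0881) and SMIM14 (0.103). For RHEB they were CGGBP1 (0.0392, r = 0.988), ITFG2 (0.0493), TMEM260 (0.0508), HERPUD2 (0.0516) and COIL (0.0541). For DDIT4 they were NSDHL (0.126, r = 0.989), CENPI (0.151), HMGCS1 (0.154), CHAC1 (0.167) and KRT19 (0.192), at larger distances than for TSC2 or RHEB.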

How the data were processed

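Biotin-labelled whole-transcript targets were made from 100 ng of total RNA, per the labels' protocols. The authors deposited RMA-normalized intensities in linear units, per the submitters' processing notes, and the sources used here name neither the RMA version nor a genome build. RMA equalises array distributions, which can remove part of a change shared by most genes. The log2 of each deposited value lay within 6.99e-10 of a number with 2 decimals, and all tests used log2. Arrays carry no read depth, so their number limits the precision.

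Of 33297 probe sets, 19460 had 1 gene symbol, 1754 several and 12083 none here. The brightest set per gene left 18417 genes. A limma model (version 3.58.1, R 4.3.3, with eBayes defaults) was fitted to all 6 arrays with 3 residual degrees of freedom and Benjamini-Hochberg adjustment over all genes. On simulated data for shTSC2 versus control with 200 changed genes among 18417, it recovered 16.4% of log2 changes of 0.5, 70.1% of 1 and 96.4% of 2. In the data 3833 genes were called in that comparison, many more than were changed in the simulation. These rates therefore need not apply to the data.

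The members and lists were chosen with earlier results of these data known. All members were named, and at most 4 called genes of a list and comparison by adjusted p, with the paralogues in any case. KRT8, KRT18, KRT19, EPCAM, CDH1, AKT1, AKT2, RPS6KB1, EIF4EBP1 and EIF4EBP2 were named after their values were seen, as was LPIN1 in shTSC2 against control. Alternatives were quantile normalization, median centring, dim genes left out, every probe set, the mean of probe sets, only the 4 arrays compared, a replicate block, an intensity trend, gene length, and each array left out. Sequences came from RefSeq promoters on GRCh38.p14. Listed genes with no measured value were not analysed here.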

Additional observations from a re-analysis of the deposited data

Results flagged for a closer look

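DDIT4 was the 1 measured gene of the 9 whose difference from control had opposite signs in the knockdown groups while the groups themselves differed by test. It stood at 0.56 in shTSC2-adapted and at -1.23 in shTSC2 cells against control. The difference between them, 1.79, was tested directly between shTSC2-adapted and shTSC2 arrays (limma, SE 0.19, adjusted p = 0.00288), with both shTSC2-adapted arrays above both shTSC2 arrays. The value of 0.56 did not pass (adjusted p = 0.291).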

How the results depend on the processing

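In shTSC2 against control the 4 calls held under every alternative except leaving out an array, which gave 1 to 4. In shTSC2-adapted against control the 1 call became 0 with the replicate block, and 0 to 1 with an array left out. In shTSC2-adapted against shTSC2 the 2 calls became 1 with quantile normalization, median centring, every probe set tested, only the 4 arrays compared, the replicate block, the intensity trend with robust settings and the gene length trend removed, and 1 to 2 with an array left out; the lost call was RPTOR. With only 4 arrays compared, fewer arrays enter the fit, and for the other losses the cause was not tested. Array numbers are not stated to mark a shared culture, and the deviations of same-numbered arrays correlated at -0.187 (shTSC2-adapted with control), -0.102 (shTSC2 with control) and 0.212 (shTSC2-adapted with shTSC2). A block with the control numbers crossed, added after seeing the data, gave 1, 1 and 4 calls for shTSC2-adapted against shTSC2, shTSC2-adapted against control and shTSC2 against control. Signs that turned all belonged to values that did not pass. With the gene length trend removed, MLST8 stood at -0.04 in shTSC2 against control and RICTOR at -0.01 in shTSC2-adapted against shTSC2. With an array left out, TSC1 ran from -0.04 to 0.13 in shTSC2-adapted against control and from -0.04 to 0.12 in shTSC2 against control, AKT1S1 from -0.16 to 0.03 in shTSC2-adapted against control, and RICTOR from -0.08 to 0.35 in shTSC2-adapted against shTSC2. TSC1 in shTSC2-adapted against shTSC2, at 0.00, took both signs, from -0.09 to 0.09. Of 432 gene values under alternatives, 23 lost the call. All 23 came from the 4, 1 and 2 calls above, and most of the 432 values had no call to lose. Over all genes, leaving out a control array lowered the count called in shTSC2 against control to 1484 or 1175, against 3833, and shTSC2-adapted against control ran from 0 to 248 genes, against 48. In shTSC2-adapted against shTSC2 the count was 837 or 1181 without shTSC2-adapted array 1 or 2 and 1113 without either control array, against 2300.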
